A study of Mus musculus with 10 samples.

Results

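Primordial germ cells generated in vitro (iPGCs) were compared with the somatic cells of embryoid bodies (EBs) of the same day. EBs were grown for 6 days as hanging drops without LIF, from 2 mouse embryonic stem cell lines, and were then dissociated with trypsin and sorted by flow cytometry. The comparison took 8 of the 10 arrays of the series, 4 of iPGCs and 4 of somatic cells, and left out the arrays of undifferentiated stem cells, so that day and medium were equal on both sides. Within each line the iPGC arrays were set against the somatic arrays, and the difference was averaged over the lines.

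The V6.5 line has a 129xBL6 F1 background, and its iPGCs were the SSEA1-positive cells bright for cKit, with the cells negative for SSEA1 and cKit as somatic cells. The Oct4-Gfp line has a mixed background and carries a green reporter for Pou5f1 (Oct4), and its iPGCs were the reporter-positive cells bright for cKit, with the cells negative for the reporter and cKit as somatic cells. Each of these 4 groups has 2 arrays. None of the groups carried a deletion or received an added agent. Line, background and sorting scheme differ together and cannot be told apart. The somatic gate takes every cell of the EB that lacks the sorted markers, so it is a mixture.

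PGCs are the founders of eggs and sperm. In the mouse embryo they are set aside from the proximal epiblast by BMP signals, and the transcription factors Prdm1 (Blimp1), Prdm14 and Tfap2c drive the step. PGCs are known for keeping genes of pluripotency on, for shutting down the mesodermal program of their neighbours, and for erasing DNA methylation, imprints included, as they move to the gonad. Genes for meiosis and for transposon defence are known mostly from later germ cells, after arrival in the gonad. The study nevertheless reported RNA of Dazl and of Ddx4 (Mvh) in PGCs of the embryo before that arrival, and Mvh protein only in gonadal PGCs.

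All values are signals, the scaled brightness of a probe set on a linear scale, and every list of 4 values runs V6.5 replicate 1, V6.5 replicate 2, Oct4-Gfp replicate 1 and Oct4-Gfp replicate 2. Differences are log2(iPGC) minus log2(somatic) after adding 15.1 to each signal, given ± the standard error, so that a positive value is higher in iPGCs. The added constant makes the folds of dim genes too small. Adjusted p-values are from limma over 25621 probe sets, and a gene was called at an adjusted p under 0.05. Where a gene lay under the background on every array of one side, the fold is given as a lower bound. Background was set on each array by 44 olfactory receptor probe sets, at their 95th percentile, and lay between 16.9 and 25.4 by array.

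The arrays of 1 cell type correlated with each other at r = 0.962 to 0.985 in iPGCs and 0.971 to 0.987 in somatic cells, whereas iPGC and somatic arrays correlated at 0.789 to 0.847, across probe sets. Between 30897 and 33397 probe sets per array exceeded the background. The ratio of 3′ to 5′ probe sets of Gapdh, a sign of RNA integrity and amplification, was 1.51, 1.63, 2.02 and 2.37 on the iPGC arrays and 1.74, 1.73, 1.65 and 2.05 on the somatic arrays, and its part in the results was not tested beyond its use as a covariate.

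iPGCs and somatic cells differed in most of the transcriptome. Of 11918 genes tested, 3859 were higher in iPGCs (32.4%) and 3558 were lower (29.9%). Differences of at least 4-fold were fewer, with 615 genes higher (5.16%) and 721 lower (6.05%). Since so many genes passed the test, the counts for gene groups are given at both thresholds and are to be read against these shares. A gene that passed the filter on low values only through the arrays of one side was bound to differ in that direction, so the counts describe the genes measured and not the full lists. Each array is a bulk sample, so fewer cells of a type and less RNA per cell cannot be told apart. By probe set, 6627 were higher and 8084 lower, so 45.0% of the calls were higher. Centring each array on its median moved the median difference by 0.21 and turned this split to 8236 higher and 5813 lower, or 58.6% higher, and quantile normalization gave 52.0%. Whether a small difference was called therefore depended on the scaling.

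Among called genes whose iPGC and somatic arrays did not overlap, the 10 largest fitted differences towards iPGCs were those of Calcoco2, Morc1, Ooep, Gstm3, Dppa3, Mymx, Cnpy1, Dppa2, Esrrb and Fbxo15. For genes at background on one side the fitted value depends on the constant added before the logarithm, so their places in this order are not exact. Calcoco2, a receptor for selective autophagy, had signals of 4111, 4551, 4375 and 5583 in iPGCs against 3.27, 31.5, 3.24 and 16.0 in somatic cells (log2 difference 7.46 ± 0.31, adjusted p = 4.31e-06). Morc1, which silences transposons in male germ cells, had signals of 2780, 2661, 2734 and 3394 against 0.988, 17.4, 12.1 and 10.5, at least 142-fold higher (adjusted p = 1.89e-06). Ooep, a maternal factor of the egg cortex, had 4916, 6009, 4631 and 4928 against 23.5, 76.0, 21.5 and 67.4 (log2 difference 6.49 ± 0.34, adjusted p = 9.65e-06). For each of these 3 genes the lowest iPGC array lay far above the highest somatic array, although a lack of overlap was a condition of the list.

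Towards somatic cells the 10 largest fitted differences were those of Hbb-bh1, Hba-x, Hbb-y, Hoxb5, Cdh11, Bmp5, Nrp1, Pdgfra, Tnnt2 and Snai2. They comprise embryonic globins, a Hox gene, a mesenchymal cadherin, a BMP ligand, a receptor of semaphorins and VEGF, a growth factor receptor of mesoderm, a cardiac troponin and a regulator of epithelial-mesenchymal transition. Pdgfra had signals of 96.1, 89.3, 59.7 and 88.2 in iPGCs against 5140, 5041, 2571 and 3620 in somatic cells (log2 difference -5.35 ± 0.16, adjusted p = 1.41e-06).

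**Figure D1:**
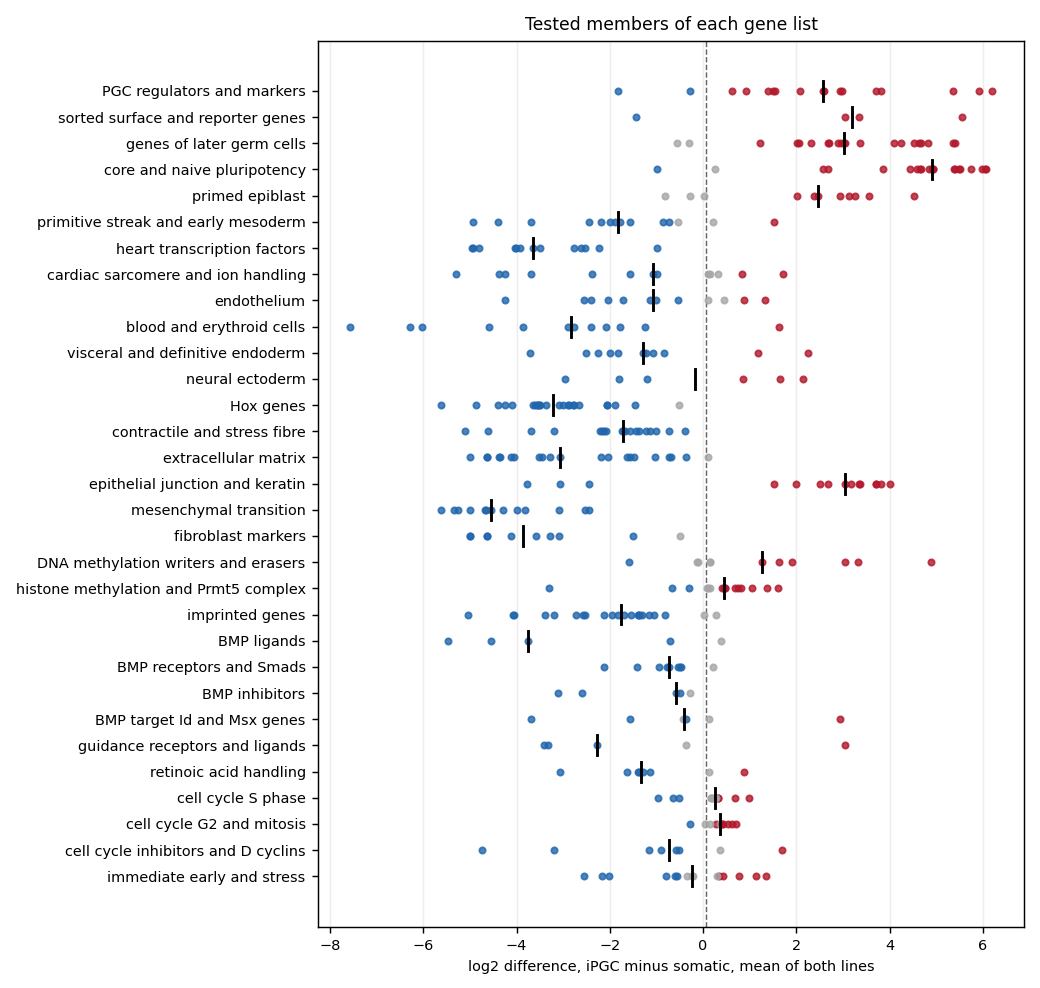
Log2 difference between iPGCs and somatic cells (x axis) for the tested members of 31 gene lists (y axis), 1 point per gene. Red points were called higher in iPGCs, blue points lower and grey points were not called; black bars are list medians and the dashed line is the median of all genes tested, 0.06. The medians run from -4.55 for genes of mesenchymal transition to 4.90 for core and naive pluripotency.

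PGC regulators were higher in iPGCs of both lines. Of 20 regulators and markers listed, 17 were tested. Of these, 15 were higher and 2 lower, where 32.4% and 29.9% of all genes were so called, and 10 were at least 4-fold higher, against 5.16% of all genes. Their median difference was 2.56, where that of all genes tested was 0.06. Prdm1, the repressor that founds the lineage, had signals of 1137, 814, 1002 and 745 on the iPGC arrays and 29.7, 84.4, 66.5 and 52.9 on the somatic arrays (log2 difference 3.72 ± 0.27, adjusted p = 3.53e-05). Prdm14, its partner in restoring pluripotency, had 911, 941, 1028 and 1141 against 0.984, 8.43, 13.0 and 19.8, at least 49.2-fold higher (adjusted p = 1.18e-06). Prdm14 was at or under the background on every somatic array, whereas Prdm1 was above it on all 4.

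Tfap2c, which acts below Prdm1, was read by 3 probe sets, the brightest with 8804, 8724, 8196 and 8899 in iPGCs against 1246, 1038, 1931 and 1771 in somatic cells (log2 difference 2.56 ± 0.11, adjusted p = 4.10e-06). The other probe sets of Tfap2c were dimmer in somatic cells, at means of 229.9 and 96.8, and differed by 4.42 and 4.69. Dppa3 (Stella), a chromatin factor of PGCs and eggs, had 6825, 6987, 6869 and 6927 against 52.3, 121, 62.3 and 94.6 (log2 difference 6.20 ± 0.23, adjusted p = 2.89e-06), and its 4 iPGC signals differed little from each other. Dnd1, an RNA-binding protein that PGCs need to survive, had 702, 787, 386 and 508 against 22.0, 38.6, 10.8 and 46.5 (log2 difference 3.80 ± 0.28, adjusted p = 4.00e-05). The iPGC arrays of V6.5 were the higher ones for Dnd1, and no iPGC array overlapped a somatic array for any of these genes.

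Tcl1, a cofactor of Akt, had 1471, 1379, 1175 and 1412 in iPGCs against 9.09, 5.19, 15.0 and 2.43 in somatic cells, at least 66.6-fold higher (adjusted p = 1.82e-06). The X-linked homeobox genes Rhox9, Rhox6 and Rhox5, of which the first pair are close copies that probes may not tell apart, differed by 2.97 ± 0.17, 2.59 ± 0.29 and 2.09 ± 0.15. Differences were smaller for the surface proteins Ifitm1 (1.54 ± 0.16) and Ifitm3 (1.39 ± 0.12) and for Alpl (1.50 ± 0.18), the alkaline phosphatase used to stain PGCs. Their signals in somatic cells were also high, with Ifitm3 at 2271, 2621, 2263 and 2613 and Alpl at 1306, 1031, 834 and 1331.

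Id4, an inhibitor of basic helix-loop-helix factors, had 1950, 2284, 1428 and 1712 in iPGCs against 334, 224, 249 and 138 in somatic cells (log2 difference 2.93 ± 0.21, adjusted p = 3.60e-05). The 2 regulators that were lower in iPGCs were Sox17 and Lin28a. Sox17, which also marks endoderm and endothelium, had 56.3, 9.87, 14.6 and 38.1 against 105, 82.8, 146 and 221 (log2 difference -1.83 ± 0.36, adjusted p = 0.00403). Lin28a, which blocks the processing of let-7, was bright everywhere, at 5097, 5577, 4499 and 4578 against 5704, 6068, 6204 and 5849 (log2 difference -0.27 ± 0.09, adjusted p = 0.0408), and its difference was the smallest of the list. By this probe set Lin28a lost its call under median centring and when any 1 of 7 arrays was left out. The other probe set of Lin28a differed by -0.50 (adjusted p = 0.00943 in limma). Nanos3 had no probe set of its own name here, and Lin28b stayed under the filter on low values.

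Genes of the sort are no finding, since the gates chose them, and serve as a check of the labels. Kit had 1841, 2072, 1810 and 1381 in iPGCs against 134, 261, 193 and 240.2 in somatic cells, and Pou5f1 had 3367, 3831, 2976 and 2419 against 9.19, 70.7, 63.9 and 107. For both genes every iPGC array lay above every somatic array, as the labels have it. Of the fucosyltransferases that make the SSEA1 epitope, Fut9 had 172, 156, 186 and 129 against 1.05, 4.12, 3.05 and 0.926, and Fut4 went the other way with 60.1, 55.5, 70.8 and 56.9 against 212, 171, 136 and 261. In V6.5, which was sorted without the reporter, Pou5f1 differed by 6.31 ± 0.54.

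Genes known mostly from germ cells that have reached the gonad were higher in iPGCs as well. Of 28 such genes listed, 21 were tested. Of these, 19 were higher, none lower and 2 not called, with 18 at least 4-fold higher by the fitted value and 16 with dim genes set at their lower bound. Their median difference was 3.02. Of the remaining 7, Tdrd1, Tdrd9, Piwil4, Asz1, Sycp2 and Tex101 stayed under the filter and Mageb4 had no probe set of its own name. In 9 of the 21 the somatic arrays were all under the background, so that these genes passed the filter through their iPGC arrays alone. The filter is the median of each array, 72.9 to 91.6 on the somatic arrays. Tex14, Ddx4, Piwil2 and Stra8 lay under it on every somatic array, so more than these 9 genes passed in that way.

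Dazl, an RNA-binding protein that licenses germ cells for meiosis, had signals of 677, 408, 973 and 881 in iPGCs against 2.41, 5.38, 1.03 and 0.686 in somatic cells, at least 34.3-fold higher (adjusted p = 1.82e-06). Ddx4 (Mvh), the helicase of germ granules, had 752, 538, 829 and 1030 against 14.6, 25.5, 11.3 and 27.6 (log2 difference 4.52 ± 0.21, adjusted p = 6.06e-06). Tex14, which keeps the bridges between germ cells open, had 1161, 983, 1522 and 997 against 13.6, 29.7, 7.12 and 5.41 (log2 difference 5.39 ± 0.19, adjusted p = 2.67e-06). All 3 were near or under the background on the somatic arrays, and for each the brightest array was an iPGC array of Oct4-Gfp.

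Genes of the piRNA pathway, which silences transposons, were in the same group. Mael had 422, 380.1, 679.6 and 649 in iPGCs against 1.91, 0.238, 5.43 and 8.30 in somatic cells, at least 25.4-fold higher (adjusted p = 1.17e-06). Piwil2, a Piwi protein, had 1010, 707, 1381 and 1253 against 40.1, 53.4, 25.2 and 51.3 (log2 difference 4.25 ± 0.20, adjusted p = 6.33e-06). Mov10l1, a helicase that makes piRNA precursors, was at least 9.93-fold higher, and Gtsf1 was at least 6.23-fold higher. Tdrkh, a Tudor protein of the same pathway, was not called, at 607, 262, 519 and 448 against 719, 548, 614 and 739 (log2 difference -0.55 ± 0.26, adjusted p = 0.106), with both sides far above the background.

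Genes of the meiotic chromosome axis and of cohesin followed. Smc1b, a meiotic cohesin subunit, had 506, 288, 579 and 348 against 1.75, 1.15, 0.923 and 5.94, at least 20.4-fold higher (adjusted p = 8.14e-06). Hormad1 was at least 14.0-fold higher, with 229, 213, 348 and 386 against 2.17, 5.52, 0.285 and 2.90. Stag3 had 1293, 1020, 1243 and 1126 against 187, 139.6, 149 and 196 (log2 difference 2.70 ± 0.15, adjusted p = 1.18e-05), and Sycp3, a protein of the axis, had 1339, 1397, 1429 and 1005 against 222, 194, 189.9 and 435 (log2 difference 2.32 ± 0.25, adjusted p = 2.41e-04). Stra8, induced by retinoic acid at meiotic entry, had 205, 337, 237 and 207 against 19.2, 26.9, 18.8 and 13.7 (log2 difference 2.90 ± 0.17, adjusted p = 1.68e-05). Somatic signals of Stag3 and Sycp3 were clearly above the background, unlike those of Smc1b and Hormad1. Brdt, a bromodomain protein of spermatocytes, was dim on all 8 arrays and not called (log2 difference -0.30 ± 0.21, adjusted p = 0.253).

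**Figure D2:**
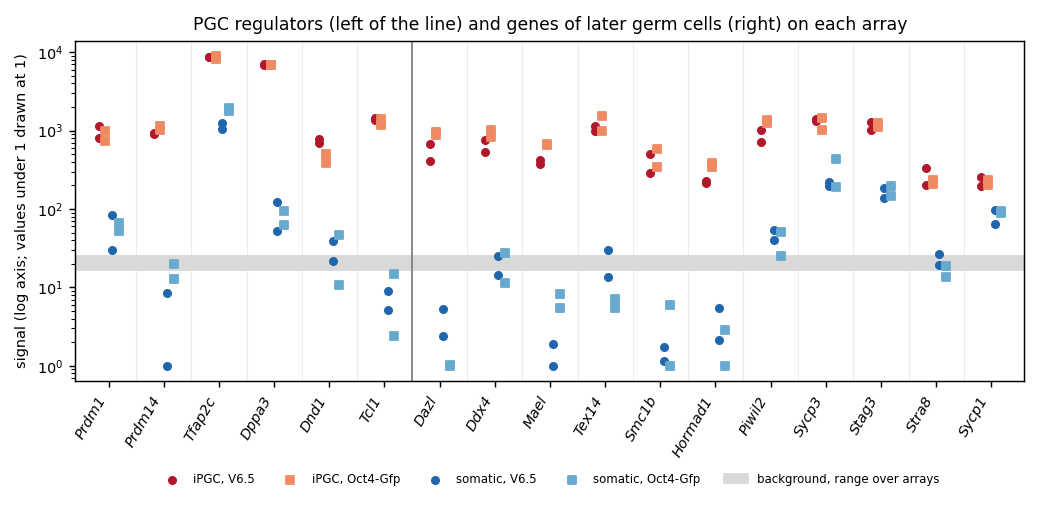
Signal on each array (y axis, log scale) for 6 PGC regulators and 11 genes of later germ cells (x axis). Red and orange points are the 4 iPGC arrays, blue points the 4 somatic arrays, and the grey band is the range of the background over arrays. Every iPGC array lies above every somatic array for each gene, and Tcl1, Dazl, Mael, Smc1b and Hormad1 lie under the band in somatic cells.

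Promoters of some germ cell genes are known to carry an E-box, CACGTG, bound by MAX with MGA, or an E2F site, TCCCGC. Both recruit a repressor complex in cells outside the germ line. The sequences below, from RefSeq windows of 250 bases before to 50 after the start in GRCm38.p6, show where these letters stand. They are shown because these motifs are known from promoters of germ cell genes. Mael and Ddx4 had the largest differences among the members that hold both, and Tex14 the largest among all members that hold TCCCGC. Capitals mark CACGTG, which reads the same on both strands, and TCCCGC on either strand (TCCCGC or GCGGGA); the letters of the motifs do not overlap in these sequences. The promoter of Mael is at chr1:166238695-166238994 on the minus strand, that of Ddx4 at chr13:112652261-112652560 on the minus strand, and that of Tex14 at chr11:87404815-87405114 on the plus strand.
Mael: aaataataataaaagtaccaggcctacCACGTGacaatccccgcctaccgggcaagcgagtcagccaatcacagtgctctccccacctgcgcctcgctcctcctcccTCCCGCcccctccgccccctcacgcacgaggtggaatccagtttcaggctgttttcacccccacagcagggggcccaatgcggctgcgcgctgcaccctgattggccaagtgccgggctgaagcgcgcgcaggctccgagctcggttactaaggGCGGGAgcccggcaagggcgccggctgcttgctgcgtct
Ddx4: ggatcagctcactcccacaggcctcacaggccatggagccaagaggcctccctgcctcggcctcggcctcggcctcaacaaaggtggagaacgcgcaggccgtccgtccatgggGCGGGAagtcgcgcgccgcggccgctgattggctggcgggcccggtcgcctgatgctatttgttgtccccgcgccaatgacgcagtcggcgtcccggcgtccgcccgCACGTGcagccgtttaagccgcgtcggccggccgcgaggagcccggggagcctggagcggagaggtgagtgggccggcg
Tex14: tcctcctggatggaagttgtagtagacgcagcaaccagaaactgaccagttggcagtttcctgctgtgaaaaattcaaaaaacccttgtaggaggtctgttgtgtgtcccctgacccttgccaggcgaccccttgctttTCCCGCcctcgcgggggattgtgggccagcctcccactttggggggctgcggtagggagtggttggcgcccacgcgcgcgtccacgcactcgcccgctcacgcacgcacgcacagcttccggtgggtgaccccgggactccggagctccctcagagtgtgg

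In Mael the E-box began 223 bases before the start, with TCCCGC 143 bases before it and the reverse letters within the first bases transcribed. In Ddx4 the E-box began 29 bases before the start and the E2F letters 136 bases before it. Tex14 had TCCCGC 111 bases before the start and no CACGTG in this window. Of the 21 tested genes of later germ cells, 18 had a promoter in the table. CACGTG stood in 10 of these 18 (55.6%), against 8.09% of all 27025 genes with a promoter, 11.9% of genes tested and 12.9% of genes at least 4-fold higher in iPGCs. TCCCGC stood in 11 (61.1%), against 22.0%, 40.9% and 33.4%. Both stood in 7 (38.9%), namely Ddx4, Hormad1, Mael, Slc25a31, Stag3, Sycp1 and Sycp3, against 2.32%, 4.73% and 5.64%. A match is a description of the letters and not of binding.

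Pluripotency genes had the highest median of the gene lists. Of 22 core and naive genes listed, 21 were tested. Of these, 19 were higher, 1 was lower and 1 was not called, with all 19 at least 4-fold higher. Their median was 4.90. Nanog, at the core of the network, had 6491, 6208, 6839 and 6564 in iPGCs against 100.5, 188, 226 and 389 in somatic cells (log2 difference 4.90 ± 0.23, adjusted p = 6.07e-06). Sox2, its partner, had 5587, 5768, 5928 and 7296 against 114, 198, 603 and 229 (log2 difference 4.59 ± 0.31, adjusted p = 2.50e-05). Somatic replicate 1 of Oct4-Gfp was the highest somatic array for Sox2 and still lay well below all iPGC arrays.

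Esrrb, a nuclear receptor of the naive state, had 3492, 3405, 4076 and 4125 against 22.2, 59.1, 52.4 and 43.7 (log2 difference 6.04 ± 0.21, adjusted p = 2.39e-06). Dppa2 had 4430, 5501, 5724 and 5946 against 17.0, 88.9, 84.7 and 106 (log2 difference 6.08 ± 0.34, adjusted p = 1.26e-05), and Zfp42 (Rex1), a marker of naive cells, had 5157, 5986, 5731 and 6629 against 70.1, 182, 88.2 and 143 (log2 difference 5.51 ± 0.28, adjusted p = 8.38e-06). These genes were bright in iPGCs of both lines. Klf4 and Klf5, Krüppel-like factors that sustain self-renewal, differed less, by 2.58 ± 0.26 and 2.68 ± 0.15. Tdgf1, the coreceptor of Nodal, had 5099, 6435, 5542 and 5996 against 76.0, 234, 392 and 2683, and somatic replicate 2 of Oct4-Gfp stood apart from the other 3 somatic arrays.

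Sall4, which PGCs and stem cells share with early mesoderm, was not called: its signals were 8776, 8991, 10264 and 9423 in iPGCs against 7132, 7494, 8125 and 8821 in somatic cells (log2 difference 0.25 ± 0.09, adjusted p = 0.0588). It was called under 5 alternatives, among them median centring and limma-trend. Tbx3, a naive factor that is also used in limb and heart, was lower in iPGCs, with 689, 889, 1205 and 1495 against 1768, 1700, 2308 and 2488 (log2 difference -0.98 ± 0.13, adjusted p = 5.60e-04). Markers of PGCs and of undifferentiated stem cells were both high in iPGCs. The summed signal of 5 stem cell markers (Esrrb, Klf4, Tbx3, Zfp42 and Tfcp2l1) was 12747 to 17816 on the iPGC arrays against 2306 to 3209 on the somatic arrays, with 4 of the 5 called higher. That of 5 PGC markers was 17481 to 18379 against 1290 to 2083, and all 5 were higher. The share of stem cells that had stayed undifferentiated in the iPGC gate was not tested here.

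Genes of the primed epiblast, the embryo's later pluripotent state, were mostly higher in iPGCs. Of 12 listed, 11 were tested. Of these, 8 were higher, none lower and 3 not called, and all 8 were at least 4-fold higher. The 8 included Lefty2, an inhibitor of Nodal, with 2313, 4370, 3280 and 3598 against 49.0, 159.9, 192 and 176 (log2 difference 4.52 ± 0.34, adjusted p = 4.08e-05). Nodal had 1868, 2752, 1346 and 1861 against 109, 192, 356 and 218 (log2 difference 3.14 ± 0.25, adjusted p = 5.39e-05). Otx2, which restrains entry into the germ line, had 919, 878, 522 and 600.4 against 108, 37.4, 65.7 and 140.1 (log2 difference 2.93 ± 0.31, adjusted p = 2.01e-04). Nodal and Otx2 were both higher in V6.5 iPGCs than in Oct4-Gfp iPGCs.

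Fgf5, the usual marker of the primed epiblast, varied most. Its signals were 1511 and 407 in V6.5 iPGCs and 115 and 88.3 in Oct4-Gfp iPGCs, against 15.9 and 13.1 and 37.7 and 186 in the somatic cells of these lines. The difference was 4.76 ± 0.73 in V6.5 (adjusted p = 0.00206) and 0.17 ± 0.73 in Oct4-Gfp (adjusted p = 0.869), and the difference between the lines was -4.59 ± 1.04, adjusted p = 0.364. The mean of the lines passed the test (log2 difference 2.47 ± 0.52, adjusted p = 0.00548) although iPGC and somatic arrays overlapped, and it missed the threshold when line was an additive term.

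Enzymes that read, write or erase DNA methylation differed member by member. Of 13 listed, 11 were tested. Of these, 6 were higher in iPGCs, 1 lower and 4 not called, with 3 at least 4-fold higher. Dnmt3l, the cofactor of de novo methylation, had 2119, 1870, 2517 and 3297 in iPGCs against 39.6, 30.5, 76.0 and 175 in somatic cells (log2 difference 4.89 ± 0.24, adjusted p = 7.55e-06). The methyltransferases themselves were not called: Dnmt1, which maintains methylation, had 4063, 3420, 5719 and 5572 against 3597, 3661, 4455 and 5093 (log2 difference 0.14 ± 0.11, adjusted p = 0.293). Dnmt3a (log2 difference -0.14 ± 0.12, adjusted p = 0.363), Dnmt3b (log2 difference 0.15 ± 0.13, adjusted p = 0.365) and Uhrf1, which guides Dnmt1 to newly made DNA (log2 difference -0.10 ± 0.10, adjusted p = 0.408), also missed the threshold, and all 4 were bright on all 8 arrays. A p above the threshold does not show that they were equal, and Dnmt3a and Uhrf1 changed sign under median centring.

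Tet1 and Tet2, which oxidize methylated cytosine, were higher in iPGCs, and Tet3 was lower. Tet1 had 2239, 2318, 3111 and 2602 against 596, 577, 727 and 776 (log2 difference 1.92 ± 0.10, adjusted p = 1.05e-05), and Tet2 had 1967, 2081, 2820 and 3115 against 718, 822, 846 and 731 (log2 difference 1.64 ± 0.11, adjusted p = 2.34e-05). Tet3 was dim, with 50.7, 50.7, 21.1 and 25.8 against 151, 175, 147 and 85.6 (log2 difference -1.58 ± 0.17, adjusted p = 1.94e-04). Apobec1, a cytidine deaminase, differed by 3.32 ± 0.13, and Gadd45a, linked to repair, by 3.04 ± 0.14. Zfp57, which protects imprints from demethylation, had 1185, 1580, 1740 and 1931 against 671, 669, 661 and 597 (log2 difference 1.27 ± 0.12, adjusted p = 1.41e-04).

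Of 16 genes of histone methylation and the Prmt5 complex, all were tested. There were 10 higher, 3 lower (1 under median centring) and 3 not called, none at least 4-fold higher and 1 at least 4-fold lower. Jarid2, a subunit of Polycomb repressive complex 2, had 5510, 4951, 5935 and 5980 against 1740, 1833, 1631 and 2099 (log2 difference 1.61 ± 0.12, adjusted p = 3.48e-05). The core subunits of that complex differed less: Suz12 by 0.82 ± 0.10, Eed by 0.69 ± 0.10 and Ezh2 by 0.40 ± 0.09. Prmt5, the arginine methyltransferase that works with Prdm1 in PGCs, had 3215, 2792, 3812 and 3054 against 2186, 2271, 2453 and 2342 (log2 difference 0.47 ± 0.11, adjusted p = 0.0109). On the other side, Kdm6b, a demethylase that removes the Polycomb mark, had 196, 169.9, 343 and 154 against 1925, 2009, 2709 and 2109 (log2 difference -3.31 ± 0.24, adjusted p = 3.39e-05). Ehmt1, which places a repressive mark that PGCs lose, was lower by a smaller amount (log2 difference -0.67 ± 0.16, adjusted p = 0.00865). The other lower member was Ehmt2 (log2 difference -0.30 ± 0.10, adjusted p = 0.0410), which lost its call when any 1 of 6 arrays was left out.

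Imprinted genes were lower in iPGCs. Of 23 listed, 22 were tested. Of these, 20 were lower, none higher and 2 not called, with 9 at least 4-fold lower. The median was -1.76. Dlk1, an inhibitor of differentiation, had 115, 123, 25.2 and 49.6 in iPGCs against 4629, 4530, 1641 and 1542 in somatic cells (log2 difference -5.04 ± 0.16, adjusted p = 1.82e-06). Igf2, the growth factor, had 945, 964, 354 and 448 against 10530, 12027, 10598 and 9804 (log2 difference -4.08 ± 0.12, adjusted p = 1.19e-06), and Usp29 had 241, 182, 69.0 and 76.0 against 2536, 2473, 2361 and 1976 (log2 difference -4.06 ± 0.13, adjusted p = 1.79e-06). For these 3 genes the V6.5 iPGC arrays were brighter than the Oct4-Gfp iPGC arrays.

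The group held genes transcribed from the maternal and from the paternal copy. Cdkn1c, a cell cycle inhibitor on the maternal copy, had 542, 413, 319.8 and 333 against 4050, 4988, 3112 and 3058 (log2 difference -3.20 ± 0.13, adjusted p = 3.60e-06), and Igf2r, also maternal in mice, differed by -1.39 ± 0.10. Paternal genes were Mest, with 1542, 1596, 1368 and 1442 against 10144, 11067, 10016 and 8398 (log2 difference -2.72 ± 0.10, adjusted p = 3.22e-06), and Peg3, with -1.82 ± 0.13. Grb10 differed by -2.54 ± 0.19, Zim1 by -3.40 ± 0.17 and the noncoding RNA Meg3 by -1.31 ± 0.13. The members not called were Plagl1 (log2 difference 0.28 ± 0.24, adjusted p = 0.356) and Snrpn (log2 difference 0.02 ± 0.10, adjusted p = 0.913). Arrays do not tell the alleles apart, so these are total levels and no measure of imprinting.

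The tested heart transcription factors, part of the mesodermal program, were brighter in the somatic cells. Of 14 listed, 13 were tested, and all 13 were lower in iPGCs, 12 at least 4-fold. Their median was -3.65. In 2 of the 13 the iPGC arrays were all under the background, so these passed the filter through their somatic arrays. The untested member, Nkx2-5, stayed under the filter and was at background on every iPGC array and every somatic array. Gata6, a zinc finger factor of mesoderm and endoderm, had 45.8, 63.5, 37.9 and 54.9 in iPGCs against 2268, 2176, 1582 and 2087 in somatic cells (log2 difference -4.96 ± 0.16, adjusted p = 1.82e-06). Hand1 had 280.0, 309, 71.4 and 93.3 against 5716, 5593, 4412 and 3913 (log2 difference -4.81 ± 0.12, adjusted p = 1.17e-06), and Hand2 had 17.5, 22.2, 19.3 and 40.1 against 1276, 1467, 1027 and 992 (log2 difference -4.93 ± 0.16, adjusted p = 2.19e-06). Hand2 was near the background in iPGCs, whereas Gata6 and Hand1 were above it on every array. Tbx2 (-4.04 ± 0.14), Gata4 (-4.00 ± 0.13) and Tbx20 (-3.93 ± 0.18) differed by about as much.

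Genes of the cardiac sarcomere and of ion handling were split. Of 17 listed, 13 were tested. Of these, 8 were lower in iPGCs, 2 higher and 3 not called, with 5 at least 4-fold lower. Tnnt2, cardiac troponin T, had 21.0, 45.7, 28.7 and 25.8 against 2134, 925, 2000 and 2263 (log2 difference -5.29 ± 0.28, adjusted p = 1.05e-05), and Tnni1 had 60.3, 53.4, 20.6 and 15.4 against 1647, 925, 702 and 932 (log2 difference -4.38 ± 0.20, adjusted p = 5.82e-06). Myh6, a heavy chain of cardiac myosin, was higher in iPGCs at low signals, with 59.8, 55.3, 74.7 and 147 against 8.46, 13.5, 3.75 and 36.3 (log2 difference 1.72 ± 0.33, adjusted p = 0.00382). Atp2a2, the calcium pump used by every cell, was not called, at 0.11 ± 0.09 (adjusted p = 0.327).

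Primitive streak genes, which mark the step from epiblast to mesoderm, were lower for the most part. Of 24 listed, 14 were tested. Of these, 11 were lower, 1 was higher and 2 were not called, with 6 at least 4-fold lower. In 3 of the 14 the lines had opposite signs. Mixl1, one of these and among the 11, lost its call with line as an additive term, with no line term and without moderation. Foxf1, a factor of lateral mesoderm, had 232, 227, 94.8 and 194 against 5873, 6375, 5653 and 5777 (log2 difference -4.94 ± 0.20, adjusted p = 3.65e-06). Wnt5a had 88.1, 103, 91.0 and 144 against 2149, 2956, 3943 and 1619 (log2 difference -4.41 ± 0.29, adjusted p = 2.54e-05). For both genes the iPGC arrays lay far below every somatic array. Wnt3, the streak inducer, was lower by less (log2 difference -2.45 ± 0.12, adjusted p = 8.64e-06). Cdx2 had 550.3, 265, 531 and 649 against 1874, 2373, 3075 and 1722 (log2 difference -2.18 ± 0.28, adjusted p = 4.92e-04), so its signal in iPGCs stayed well above the background. T (brachyury) had no probe set of its own name here. Cdx1, another caudal gene, was the only tested member higher in iPGCs, and it was dim, with 56.1, 74.0, 83.5 and 71.7 against 26.4, 11.6, 7.20 and 16.7 (log2 difference 1.53 ± 0.19, adjusted p = 4.63e-04).

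Embryonic globins gave the largest differences of all genes lower in iPGCs. Of 17 blood and erythroid genes listed, 12 were tested. Of these, 11 were lower in iPGCs and 1 was higher, with 9 at least 4-fold lower. Hbb-bh1, Hba-x, Hbb-y and Tal1 were under the background on every iPGC array and passed the filter through their somatic arrays alone. Runx1 and Klf1 were under the median of every iPGC array, which is the measure of the filter, and passed in the same way. Hbb-bh1, an embryonic beta globin, had 3.03, 11.2, 10.1 and 2.18 in iPGCs against 9141, 8011, 2102 and 1687 in somatic cells, at least 225-fold lower in iPGCs (adjusted p = 1.17e-06). Hba-x, the embryonic alpha globin, had 8.87, 6.08, 3.83 and 11.9 against 5185, 3965, 875 and 502, at least 97.2-fold lower. Tal1, a founder of the blood lineage, had 1.31, 10.6, 1.29 and 16.6 against 895, 687, 481 and 219.8, at least 28.3-fold lower. All 3 stayed under the background on every iPGC array, and the V6.5 somatic arrays were brighter than the Oct4-Gfp somatic arrays.

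Runx1, needed for definitive blood, had 32.4, 30.2, 24.8 and 27.1 against 560.4, 814, 921 and 350.4 (log2 difference -3.87 ± 0.29, adjusted p = 4.14e-05). Gata2, which both blood precursors and early germ cells can transcribe, went the other way, with 1639, 1114, 869 and 719 against 371, 421, 392 and 178 (log2 difference 1.63 ± 0.25, adjusted p = 0.00131). Ptprc, the pan-leukocyte marker, stayed under the filter and its probe sets were above the background on at most 1 of the 8 arrays. The summed signal of the blood markers was 62.5 to 71.9 in iPGCs and 2262 to 14921 in somatic cells.

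Of 18 endothelial genes listed, 12 were tested, with 8 lower in iPGCs, 2 higher and 2 not called, or 4 higher under quantile normalization. Of the 8, 4 were at least 4-fold lower. Kdr, the main VEGF receptor, had 73.5, 70.8, 22.8 and 63.8 against 1476, 1236, 1090 and 1441 (log2 difference -4.25 ± 0.24, adjusted p = 1.18e-05). Pecam1, an adhesion protein of endothelium that pluripotent cells also carry, was higher in iPGCs, with 516, 574, 369 and 381 against 321, 172, 267 and 226 (log2 difference 0.87 ± 0.19, adjusted p = 0.00651). Of 20 endoderm genes listed, 11 were tested, with 9 lower, 3 of them at least 4-fold, and 2 higher, 1 of them at least 4-fold. Dab2 differed most, by -3.71 ± 0.16. The higher members were Apoa2, by 2.25, and Amn, by 1.18. Ttr, a carrier protein of visceral endoderm, had 157, 35.6, 13.4 and 72.4 against 267, 721, 529 and 192 (log2 difference -2.52 ± 0.59, adjusted p = 0.00903). Both iPGC and somatic signals of Ttr varied between replicates. Afp, Foxa2, Hnf4a and Cubn were among the 7 endoderm genes that stayed under the filter. The probe sets of Afp were above the background on at most 2 of the 8 arrays. Of 15 neural genes listed, 6 were tested, with 3 higher and 3 lower, and 1 in each direction at least 4-fold. The 4 neural markers (Sox1, Pax6, Neurog2 and Dcx) stayed under the filter.

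Hox genes, which give cells a position along the body axis and which PGCs keep silent, were lower in iPGCs where they could be tested. Of 39 Hox genes listed, 24 were tested. Of these, 23 were lower in iPGCs, none higher and 1 not called, with 21 at least 4-fold lower. In 3 of the 24 the iPGC arrays were all under the background, so these genes passed the filter through their somatic arrays. The filter is the median of each array, 53.7 to 87.3 on the iPGC arrays. Hoxb5, Hoxb4 and Hoxb1 lay under it on every iPGC array, so more than these 3 genes passed in that way. The median was -3.22. All clusters took part, with 5 of 5 Hoxa genes, 6 of 7 Hoxb genes, 6 of 6 Hoxc genes and 6 of 6 Hoxd genes lower. Hoxb5 had 28.8, 3.37, 2.47 and 21.1 in iPGCs against 1608, 1324, 1276 and 1075 in somatic cells (log2 difference -5.63 ± 0.33, adjusted p = 1.46e-05). Hoxb4 had 30.6, 41.2, 25.3 and 22.7 against 1695, 1065, 1108 and 1345 (log2 difference -4.86 ± 0.17, adjusted p = 2.53e-06), and Hoxd1 had 48.5, 87.2, 58.7 and 118 against 1899, 1788, 1331 and 1800 (log2 difference -4.25 ± 0.24, adjusted p = 1.27e-05). Hoxb9 was the member not called, with 36.4, 91.6, 55.7 and 66.6 against 83.4, 135, 84.7 and 74.9 (log2 difference -0.52 ± 0.25, adjusted p = 0.118).

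Hoxb1, the most anterior gene of its cluster tested, had 13.7, 14.6, 20.8 and 19.5 against 196, 103, 245 and 346 (log2 difference -2.78 ± 0.20, adjusted p = 3.72e-05), so its iPGC signals lay around the background. Hoxc5 had 15.4, 9.60, 4.54 and 3.03 against 92.1, 211, 99.8 and 14.2, at least 4.06-fold lower (adjusted p = 0.00573), although the last of these somatic arrays was itself under the background. Hoxd9 kept a clear signal in iPGCs, with 181, 138, 288 and 547 against 2863, 4046, 3353 and 2527 (log2 difference -3.56 ± 0.24, adjusted p = 2.42e-05), and its Oct4-Gfp iPGC arrays were the higher ones. Of the Hox genes that were not tested, 9, among them Hoxa2, Hoxb7 and Hoxd11, stayed under the filter, and the others had no probe set of their own name here.

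**Figure D3:**
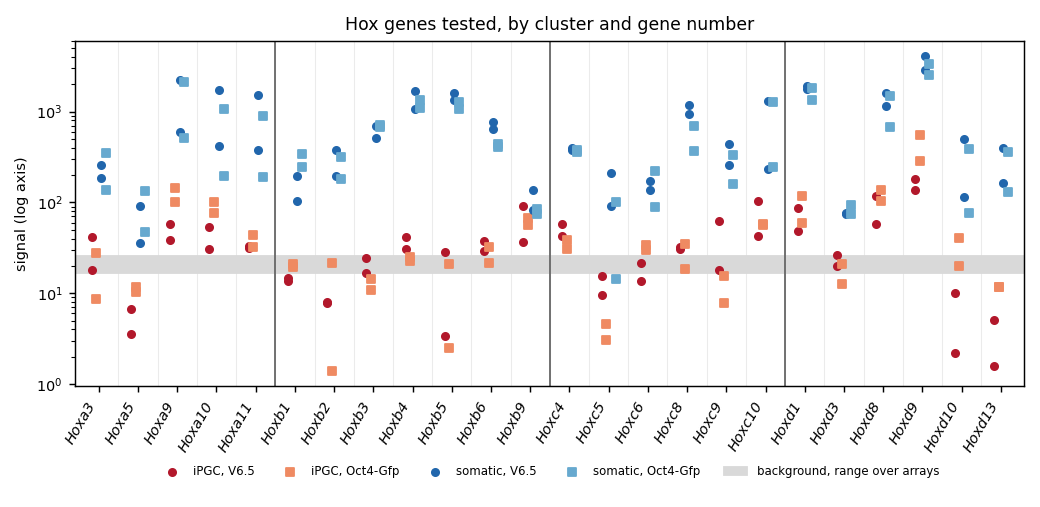
Signal on each array (y axis, log scale) for the 24 Hox genes tested (x axis), ordered by cluster and gene number; vertical lines part the clusters. Red and orange points are iPGC arrays, blue points somatic arrays, and the grey band is the range of the background. Somatic signals exceed iPGC signals for all genes but Hoxb9 and Hoxc5, where they overlap, and the posterior genes Hoxa9, Hoxa10, Hoxa11 and Hoxc10 split the somatic arrays into a brighter and a dimmer pair that each hold both lines.

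Genes of epithelial-mesenchymal transition were bright in the somatic cells. All 13 mesenchymal genes listed were tested, and all 13 were at least 4-fold lower in iPGCs, with a median of -4.55. Cdh11, a mesenchymal cadherin, had 72.0, 95.9, 36.0 and 72.9 in iPGCs against 4691, 4307, 3458 and 3559 in somatic cells (log2 difference -5.62 ± 0.19, adjusted p = 2.14e-06). Snai2, a repressor of Cdh1, had 243, 55.8, 163 and 223 against 7338, 6035, 5455 and 6835 (log2 difference -5.26 ± 0.38, adjusted p = 3.55e-05). Twist2 had 35.5, 18.5, 19.7 and 26.2 against 1460, 1516, 1241 and 871 (log2 difference -4.99 ± 0.18, adjusted p = 2.53e-06). Vim, the intermediate filament of mesenchyme, was lower but remained bright in iPGCs, with 1512, 1397, 1914 and 2892 against 10472, 10480, 10648 and 11313 (log2 difference -2.53 ± 0.14, adjusted p = 1.35e-05).

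Epithelial genes went the other way, with the keratins apart. Of 16 listed, 15 were tested. Of these, 12 were higher and 3 lower in iPGCs, with 10 at least 4-fold higher and 3 at least 4-fold lower. Cdh1 (E-cadherin) had 5651, 6209, 5633 and 6452 against 356, 371, 315 and 924 (log2 difference 3.71 ± 0.30, adjusted p = 6.07e-05). Epcam had 5815, 7129, 6279 and 6005 against 521, 666, 663 and 1396 (log2 difference 3.04 ± 0.24, adjusted p = 4.84e-05), and Esrp1, a splicing factor of epithelia, had 1868, 1947, 1992 and 2479 against 107, 58.3, 109.9 and 404 (log2 difference 3.82 ± 0.37, adjusted p = 1.43e-04). Somatic replicate 2 of Oct4-Gfp was the brightest somatic array for all 3. The 3 members that were lower were keratins of simple epithelia: Krt8 had 1365, 968, 553 and 875 against 7787, 7933, 7221 and 7770 (log2 difference -3.08 ± 0.18, adjusted p = 1.40e-05), Krt18 differed by -2.44 ± 0.19 and Krt19 by -3.77 ± 0.18.

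Extracellular matrix genes were lower in iPGCs. Of 27 listed, 21 were tested. Of these, 20 were lower, none higher and 1 not called, with 13 at least 4-fold lower and a median of -3.06. Col1a2 had 54.1, 12.6, 16.6 and 38.4 against 2010, 2543, 839 and 739 (log2 difference -4.99 ± 0.31, adjusted p = 1.89e-05), and Col3a1 had 25.4, 17.7, 17.7 and 21.7 against 1868, 1705, 523 and 341 (log2 difference -4.64 ± 0.16, adjusted p = 2.32e-06). For both fibrillar collagens the V6.5 somatic arrays were brighter than those of Oct4-Gfp. Basement membrane genes were less uniform: Col4a1 differed by -4.06 ± 0.17, whereas the laminin Lamb1 differed by -0.72 ± 0.11 and fibronectin, Fn1, by -0.38 ± 0.11, a call lost when any 1 of 4 arrays was left out.

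Fibroblast markers are given beside this because stem cells were grown on embryonic fibroblasts before the EBs were made. Of 15 listed, 10 were tested, with 9 lower in iPGCs, 8 of them at least 4-fold, and 1, Thy1, not called (log2 difference -0.49 ± 0.19, adjusted p = 0.0655). The summed signal of 7 markers was 385 to 657 in iPGCs and 7111 to 10432 in somatic cells, and Postn, Lox, Dcn and Lum were at background on every iPGC array. Lox was at background on every somatic array as well. Mesenchymal cells of the EB transcribe most of these genes too, and the part of feeder cells was not tested.

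Contractile genes of stress fibres were lower without exception. Of 20 listed, 19 were tested, and all 19 were lower in iPGCs, 8 at least 4-fold, with a median of -1.71. Acta2, smooth muscle actin, had 209, 266, 79.3 and 144 in iPGCs against 7892, 7656, 5306 and 4196 in somatic cells (log2 difference -5.11 ± 0.19, adjusted p = 2.81e-06). Anxa2 had 207, 128, 140.0 and 156 against 4884, 4086, 3838 and 3986 (log2 difference -4.62 ± 0.16, adjusted p = 2.37e-06), and Tagln had 190.2, 183, 56.3 and 45.9 against 1617, 1994, 1615 and 928 (log2 difference -3.70 ± 0.19, adjusted p = 8.64e-06). Lmna, the nuclear lamin that stiffens differentiated cells, differed by -3.19 ± 0.19. The smallest difference of the list was that of Vcl, a focal adhesion protein, at -0.39 ± 0.13 (adjusted p = 0.0351), whose iPGC and somatic arrays overlapped and which lost its call when any 1 of 7 arrays was left out. Under median centring 18 of the 19 were called lower.

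Serum response factor (SRF) controls many of these genes through the CArG box, whose core is a run of A or T between CC and GG. The promoters below, from the same RefSeq windows in GRCm38.p6, are the contractile genes with the largest differences that hold one, with the box in capitals. That of Myl9, the regulatory light chain of smooth muscle myosin, is at chr2:156775214-156775513 on the plus strand, and that of Cnn2, a calponin, at chr10:79988350-79988649 on the plus strand.
Myl9: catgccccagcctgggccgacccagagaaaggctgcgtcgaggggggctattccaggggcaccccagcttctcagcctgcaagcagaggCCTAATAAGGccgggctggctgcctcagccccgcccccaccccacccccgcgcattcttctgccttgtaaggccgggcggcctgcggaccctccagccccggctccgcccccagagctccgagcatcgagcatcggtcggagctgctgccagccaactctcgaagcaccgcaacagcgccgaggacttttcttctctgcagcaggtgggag
Cnn2: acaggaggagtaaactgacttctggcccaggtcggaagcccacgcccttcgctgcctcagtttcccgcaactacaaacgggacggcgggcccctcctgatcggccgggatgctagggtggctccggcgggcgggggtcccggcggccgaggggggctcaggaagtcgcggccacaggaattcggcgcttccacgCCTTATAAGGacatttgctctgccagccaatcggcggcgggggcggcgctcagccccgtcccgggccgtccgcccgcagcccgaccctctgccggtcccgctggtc

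The box read CCTAATAAGG in Myl9, beginning 161 bases before the start, and CCTTATAAGG in Cnn2, 56 bases before it. Of the 19 tested contractile genes, 17 had a promoter in the table, and 3 of these, Cnn2, Myl9 and Vcl, held the box (17.6%), against 1.81% of all genes with a promoter, 1.63% of genes tested and 2.87% of genes at least 4-fold lower in iPGCs. Myl9 had 289, 175, 147 and 168 in iPGCs against 1171, 1194, 849 and 491 in somatic cells (log2 difference -2.13 ± 0.22, adjusted p = 1.71e-04), and Cnn2 had 2774, 2740, 2396 and 2493 against 5403, 5439, 5631 and 4465 (adjusted p = 2.35e-04). Most contractile genes that were lower had no such letters in these windows.

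BMP signals induce PGCs in the embryo, and the ligands were brighter on the somatic arrays here. Of 7 ligands listed, 5 were tested, with 4 lower in iPGCs and 1 not called, or 3 lower and 1 higher under median centring. Of the 4, 3 were at least 4-fold lower. Bmp4, the inducer made next to the epiblast, had 144, 231, 275 and 341 in iPGCs against 3829, 3117, 3163 and 3557 in somatic cells (log2 difference -3.76 ± 0.17, adjusted p = 5.63e-06). Bmp2 had 35.4, 27.5, 11.9 and 19.6 against 984, 714, 806 and 982 (log2 difference -4.55 ± 0.16, adjusted p = 2.37e-06), and Bmp5 had 80.6, 59.9, 30.9 and 61.4 against 4150, 2939, 2178 and 3648 (log2 difference -5.48 ± 0.24, adjusted p = 5.26e-06). Bmp7 differed by less, its arrays overlapped (log2 difference -0.71 ± 0.22, adjusted p = 0.0290), and it lost its call under median centring and quantile normalization. Bmp8b, which helps Bmp4 in the extraembryonic ectoderm, was not called (log2 difference 0.39 ± 0.17, adjusted p = 0.0973).

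The receptors and Smads of the pathway were lower too, by small amounts. Of 10 listed, 9 were tested, with 8 lower and 1 not called, and 1 of them at least 4-fold lower. Bmpr2, the type II receptor, had 829, 669, 1161 and 1096 against 4343, 3593, 3959 and 4425 (log2 difference -2.13 ± 0.12, adjusted p = 1.34e-05). Smad5 differed by -1.42 ± 0.19 and Smad1 by -0.95 ± 0.15, and Smad4, the common partner, by -0.48 ± 0.10. Under median centring only 4 of the 9 were called lower. Of 9 inhibitors listed, 5 were tested, with 4 lower, 2 of them at least 4-fold, or 2 lower under median centring. These were Smad6 (log2 difference -3.11 ± 0.11, adjusted p = 2.32e-06), Bambi (log2 difference -2.60 ± 0.15, adjusted p = 1.35e-05), Twsg1 (log2 difference -0.59 ± 0.14, adjusted p = 0.00805) and Smad7 (log2 difference -0.49 ± 0.14, adjusted p = 0.0236), and Fst was not called (log2 difference -0.27 ± 0.22, adjusted p = 0.315).

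Targets of BMP signalling were mixed. Of 6 listed, all tested, 3 were lower (2 under median centring), 1 was higher and 2 were not called. At least 4-fold, 1 was lower and 1 higher. Msx1, a homeobox gene, had 460.0, 291, 212 and 267 against 4732, 4137, 3208 and 4012 (log2 difference -3.69 ± 0.18, adjusted p = 6.77e-06), and Msx2 differed by -1.57 ± 0.20. The Id genes did not move together: Id4 was higher, as given above, Id3 was lower by a small amount (log2 difference -0.37 ± 0.10, adjusted p = 0.0164), and Id1 (log2 difference 0.13 ± 0.11, adjusted p = 0.327) and Id2 (log2 difference -0.44 ± 0.19, adjusted p = 0.0895) were not called. A dimmer probe set of Id2 was called lower (log2 difference -0.63, adjusted p = 0.00416 in limma). Id1, Id2 and Id3 were bright on all arrays.

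Migrating PGCs are guided by Kit, whose ligand Kitl is made along their path, and by Cxcr4, which follows Cxcl12. Of 5 guidance genes listed and tested, 3 were lower, 1 was higher and 1 was not called. At least 4-fold, 3 were lower and 1 higher. The higher one, Kit, was sorted for. Cxcr4 was lower in iPGCs, with 246, 308, 217 and 228 against 2400, 2320, 3350 and 3182 (log2 difference -3.41 ± 0.11, adjusted p = 1.83e-06). Ackr3, a decoy receptor for the same ligand, had 345, 372, 399 and 471 against 4148, 3948, 3768 and 4579 (log2 difference -3.33 ± 0.11, adjusted p = 2.32e-06). Kitl had 70.0, 48.0, 72.8 and 92.0 against 453, 361, 353 and 404 (log2 difference -2.27 ± 0.15, adjusted p = 2.34e-05). Cxcl12 was not called and overlapped, with 405, 306, 181 and 148 against 295, 526, 489.7 and 126 (log2 difference -0.37 ± 0.40, adjusted p = 0.466).

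Of 16 genes that make, bind or break down retinoic acid, 8 were tested, with 6 lower in iPGCs, 1 higher and 1 not called. Of the 6, 1 was at least 4-fold lower. Cyp26a1, which degrades retinoic acid, had 45.8, 84.4, 57.4 and 77.2 against 487, 451, 934 and 865 (log2 difference -3.06 ± 0.18, adjusted p = 1.36e-05). The binding protein Crabp1 differed by -1.64 ± 0.11, and the receptor Rarg by -1.39 ± 0.21. Aldh1a2, which makes retinoic acid, was the member higher in iPGCs, with 119, 91.3, 119 and 121 against 19.4, 59.4, 87.4 and 69.3 (log2 difference 0.89 ± 0.24, adjusted p = 0.0170), a call lost without either of 2 arrays and without moderation.

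Cell cycle genes differed little. Of 14 genes of S phase, all tested, 4 were higher, 3 lower and 7 not called. Of 12 genes of G2 and mitosis, 11 were tested, with 7 higher, 1 lower and 3 not called. Among all genes tested, 32.4% were higher and 29.9% lower. No tested gene of these cell cycle lists reached 4-fold. Ccne1, which drives entry into S phase, had 1926, 2465, 2619 and 2285 against 1024, 1134, 1271 and 1233 (log2 difference 0.98 ± 0.12, adjusted p = 4.15e-04), and Aurka, a mitotic kinase, had 2426, 2613, 2042 and 2172 against 1406, 1551, 1300 and 1376 (log2 difference 0.71 ± 0.10, adjusted p = 7.16e-04). These counts depended on the scaling and on single arrays: the number of S phase genes called higher ran from 2 to 10 over the alternatives, and that of G2 and mitosis from 3 to 8.

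Regulators of G1 included larger differences. Of 9 inhibitors and D cyclins listed, 8 were tested, with 6 lower in iPGCs, 1 higher and 1 not called, or 4 lower and 2 higher under median centring. Of the 6, 2 were at least 4-fold lower. Ccnd2, a D cyclin, had 333, 85.8, 62.3 and 66.9 against 3510, 2638, 3918 and 3022 (log2 difference -4.73 ± 0.36, adjusted p = 4.73e-05), and V6.5 iPGC replicate 1 was the highest of the iPGC arrays. Ccnd1 had 1434, 1213, 1382 and 1505 against 2716, 3033, 3672 and 3003 (log2 difference -1.15 ± 0.12, adjusted p = 1.83e-04). Cdkn2b, an inhibitor of Cdk4, was the member higher in iPGCs, with 139, 209, 243 and 248 against 35.0, 45.4, 76.6 and 60.9 (log2 difference 1.70 ± 0.15, adjusted p = 9.82e-05).

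Immediate early genes can be induced while cells are dissociated and sorted. Of 17 early and stress genes listed, 15 were tested, with 6 lower in iPGCs, 5 higher and 4 not called, or 4 lower and 6 higher under median centring. Of the 6, 3 were at least 4-fold lower. Among all genes tested, 29.9% were lower and 32.4% higher. Fos had 368, 420.4, 189.5 and 302 against 1515, 1764, 922 and 1716 (log2 difference -2.17 ± 0.23, adjusted p = 2.12e-04), Jun had 527, 447, 270.0 and 223 against 1442, 1790, 1452 and 1176 (log2 difference -2.02 ± 0.14, adjusted p = 2.67e-05) and Atf3 had 71.3, 46.1, 28.2 and 34.1 against 327, 456, 288 and 265 (log2 difference -2.56 ± 0.16, adjusted p = 2.00e-05). Dusp1, of the same early class, was higher in iPGCs, with 2398, 2018, 2712 and 2246 against 937, 1007, 779 and 905 (log2 difference 1.35 ± 0.12, adjusted p = 9.17e-05). The part of sorting in these values was not tested.

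The same comparison within each line gave similar counts. In V6.5, 3059 genes were higher in iPGCs (25.7%) and 2850 lower (23.9%). In Oct4-Gfp, 2900 were higher (24.3%) and 2904 lower (24.4%). By probe set, 40.4% of the calls in Oct4-Gfp were higher, against 67.2% under median centring and 52.0% under quantile normalization. In both lines 4792 genes were called in the same direction and 4 in opposite directions. All 1336 genes with a mean difference of at least 4-fold had the same sign in both lines, and 1335 of them differed at least 2-fold in each. Across genes, which are not independent replicates, the differences of the lines correlated at r = 0.943.

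**Figure D4:**
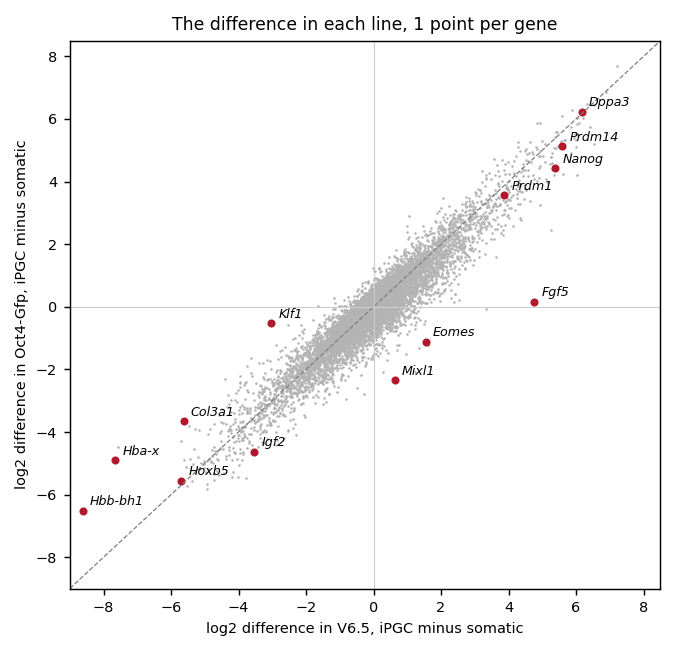
Log2 difference between iPGCs and somatic cells in V6.5 (x axis) and in Oct4-Gfp (y axis), 1 point for each of 11918 genes, with named genes in red; the dashed line marks equal differences. Most points follow the line at r = 0.943, whereas Eomes and Mixl1 lie to its right with opposite signs, and Klf1 and Hba-x lie to its left.

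No gene passed the test of the difference between the lines (0% called in limma at an adjusted p under 0.05). At an unadjusted p under 0.05 there were 941 genes, and the smallest adjusted p was 0.132, that of Eomes. Eomes, a T-box factor of the streak, had 419 and 349 in V6.5 iPGCs against 103 and 140.1 in V6.5 somatic cells, a difference of 1.55 ± 0.18. In Oct4-Gfp it had 402 and 374 against 815 and 904, a difference of -1.11 ± 0.18. The iPGC arrays of both lines were alike, and the somatic arrays of Oct4-Gfp stood above those of V6.5. The mean of the lines, 0.22 ± 0.13 (adjusted p = 0.188), averages values of opposite sign.

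Mixl1, another streak gene, had 258 and 241 against 115 and 209 in V6.5 and 128 and 98.6 against 765 and 522 in Oct4-Gfp. The somatic arrays of Oct4-Gfp were again the highest. Erythroid genes showed the reverse order of the somatic arrays: Klf1, the erythroid master regulator, had 592 and 441 in V6.5 somatic cells and 87.4 and 52.0 in Oct4-Gfp somatic cells, against 54.5 and 44.0 and 41.7 and 43.5 in the iPGCs. The difference in Klf1 was -3.04 ± 0.24 in V6.5 and -0.52 ± 0.24 in Oct4-Gfp, and the difference between the lines was 2.51 ± 0.34, adjusted p = 0.265. Lhx1, Evx1 and Runx1 were lower in iPGCs of both lines.

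**Figure D5:**
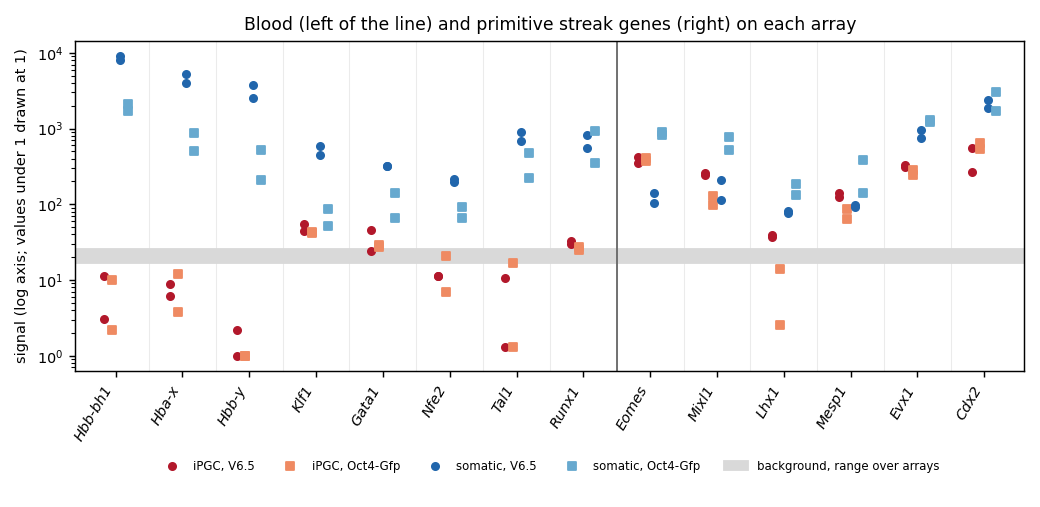
Signal on each array (y axis, log scale) for 8 blood genes and 6 primitive streak genes (x axis). Red and orange points are iPGC arrays, blue points somatic arrays (circles V6.5, squares Oct4-Gfp), and the grey band is the range of the background. Blood genes such as Hbb-bh1 and Klf1 are brighter in V6.5 somatic cells than in Oct4-Gfp somatic cells, and Eomes and Mixl1 are brighter in Oct4-Gfp somatic cells.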

How the data were processed

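Cells were lysed, RNA was extracted on columns and amplified with the Ovation Pico system, and 1 Affymetrix Mouse Genome 430 2.0 array was hybridized per sample. The deposited values are intensities, the signal of each probe set on a linear scale as the authors processed it. The submitters' processing notes name MAS5, and the study's methods name D-Chip. On every array the mean after trimming 2% at each end was 500, which is the scaling of MAS5, and no further normalization was applied here. The table held 45101 probe sets. The 64 control probe sets were left out. By the platform annotation 34945 probe sets have 1 gene symbol, 932 several and 9160 none.

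A probe set was tested when it exceeded its own array's median on at least 2 of the 8 arrays, which left 25621. To each signal 15.1 was added, the 25th percentile of all 8 arrays, and log2 values were fitted in 4 groups with limma 3.58.1 in R 4.3.3, with 4 residual degrees of freedom and Benjamini-Hochberg adjustment. A gene was represented by the probe set of highest mean signal. Nothing in the labels says that replicates came from separate cultures, so p-values measure the spread between these arrays, which may be technical. With 8 arrays, their number sets the limit of the precision.

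Alternatives were another offset or a floor, other filters, quantile normalization, median centring, other models, the Gapdh ratio as a covariate, other variance estimates, all 10 arrays, the replicate block and each array left out. The genes and lists were chosen with earlier results of these data known. The text names the 10 largest differences in each direction, some of the genes that the study names, up to 6 members of each list by size of difference and up to 3 that did not pass. Other genes were chosen after their values were seen.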

Additional observations from a re-analysis of the deposited data

Results flagged for a closer look

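In a few named genes every iPGC array of one line lay above, and every iPGC array of the other line below, the somatic arrays of that line. The values are the difference in Oct4-Gfp minus that in V6.5 on the log2 scale, ± the standard error. None passed the limma test of the difference between the lines. Among streak genes the value was -2.67 ± 0.26, adjusted p = 0.132 for Eomes and -2.97 ± 0.42, adjusted p = 0.265 for Mixl1. Fst, an inhibitor of activin and BMP, had -2.47 ± 0.43, adjusted p = 0.339, with V6.5 signals of 276 and 234 in iPGCs against 122 and 124 in somatic cells and Oct4-Gfp signals of 55.2 and 30.0 and 107 and 195. The other values were smaller, with -0.82 ± 0.26, adjusted p = 0.469 for Dnmt3b, -0.52 ± 0.21, adjusted p = 0.517 for Id1 and 0.27 ± 0.20, adjusted p = 0.660 for Uhrf1. With 2 arrays in each group such orders can arise by chance, and no single array could be tested as an outlier.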

How the results depend on the processing

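Of 14711 probe sets called between iPGCs and somatic cells, leaving out each array in turn gave 12460 to 14336 and the other alternatives 13212 to 16381. In V6.5 the count of 11278 became 7519 without somatic V6.5 replicate 1 (7519 to 10997 over arrays left out) and 9227 to 12058 otherwise. In Oct4-Gfp the count of 11692 became 7951 to 12272 without 1 array and 6749 with the Gapdh 3′ to 5′ ratio as a covariate (2730 higher and 4019 lower). The test of the difference between the lines called 24 probe sets under median centring, among them Eomes, Mixl1, Klf1, Hba-x, Hbb-bh1 and Col3a1, and 3 with all 10 arrays in 5 groups (Eomes by 2 probe sets and Hbb-bh1), and none in any other setting run, each array left out included. The models with an additive or no line term, and those of each line alone, do not give that difference. A group left with 1 array was assumed to vary like the other groups. Across probe sets, the differences between replicates 1 and 2 correlated little between iPGC and somatic arrays (r = 0.0163 in V6.5 and 0.139 in Oct4-Gfp). With 1 such comparison per line this cannot settle whether same-numbered arrays came from the same EBs, and the labels do not say. With the replicate block 14144 probe sets were called (6273 higher and 7871 lower), with 10442 in V6.5, 11129 in Oct4-Gfp and none for the difference between the lines.

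Of 176 named genes called, 161 kept sign and call in every setting and none reversed. Leaving out 1 array ended the call of 8: Aldh1a2 (highest adjusted p 0.0554, without somatic Oct4-Gfp replicate 2), Bmp7 (0.0878, without that array), Ehmt2 (0.127, without iPGC Oct4-Gfp replicate 2), Fn1 (0.0735, without somatic V6.5 replicate 2), Id3 (0.0626, without somatic V6.5 replicate 1), Lin28a (0.130, without somatic V6.5 replicate 2), Smad7 (0.0829, without somatic V6.5 replicate 1) and Vcl (0.104, without iPGC Oct4-Gfp replicate 1), all in limma. It gave a call to Bmp8b, Brdt, Cxcl12, Hoxb9, Id2, Plagl1, Tdrkh and Thy1. Some genes that were not called changed sign. Without 1 array Cxcl12 ran from -0.826 to 0.0936, the latter without somatic Oct4-Gfp replicate 1, and Snrpn from -0.0372, without iPGC V6.5 replicate 2, to 0.0672. Under median centring Dnmt3a was 0.0766 and Uhrf1 0.111. With the Gapdh covariate Snrpn was -0.00922. Counts within lists moved by over 1.5 times for blood genes lower (7 with a filter on 4 arrays), endoderm genes lower (5 without moderation), stress genes higher (3 without iPGC Oct4-Gfp replicate 2 or somatic V6.5 replicate 1) and the BMP and cell cycle lists given above. No named gene had probe sets called in opposite directions, and the widest ranges were those of Esrrb (2.43 to 6.04) and Runx1 (-3.87 to -0.66). Signals near the background and the number of arrays limit the precision of dim genes.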

Other observations

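Some of the 10 genes with the largest fitted differences were given above by name only. Gstm3, a glutathione transferase, had signals of 4297, 3079, 4086 and 3669 in iPGCs against 28.3, 33.0, 25.6 and 32.0 in somatic cells (log2 difference 6.40 ± 0.14, adjusted p = 1.17e-06). Mymx, a short membrane protein known from the fusion of muscle precursors, had 2221, 3361, 3116 and 3614 against 11.1, 37.9, 40.4 and 32.8 (log2 difference 6.12 ± 0.25, adjusted p = 3.65e-06). Cnpy1, known from FGF signalling at the midbrain-hindbrain border, had 1394, 1623, 2387 and 2003 against 8.52, 13.0, 19.7 and 7.43, at least 89.2-fold higher (adjusted p = 1.17e-06), and Fbxo15, a target of Pou5f1 in stem cells and on the list of pluripotency genes, had 3889, 3622, 4283 and 4495 against 26.6, 57.3, 64.6 and 56.8 (log2 difference 5.98 ± 0.18, adjusted p = 1.54e-06). All 4 were higher in iPGCs of both lines, which the choice of genes without overlap required. On the other side, Nrp1 had 204, 182, 32.7 and 131 against 7121, 5601, 4038 and 5577 (log2 difference -5.38 ± 0.34, adjusted p = 1.96e-05).

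The somatic arrays fell into pairs that crossed the lines for the posterior Hox genes. Hoxa9 had signals of 591, 2246, 2144 and 515, Hoxa10 of 417, 1743, 1077 and 194, Hoxa11 of 376, 1535, 901 and 191 and Hoxc10 of 232, 1314, 1280 and 243, so V6.5 replicate 2 and Oct4-Gfp replicate 1 were the brighter pair for each. Hoxd10 had 114, 502, 387 and 77.2. The anterior gene Hoxb3 did not split this way, with 698, 509, 710.0 and 672. Ttr, given above, and Prrx1, a factor of limb mesenchyme with 159, 441, 458 and 139, had the same brighter pair. The cause was not tested.

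Genes of the X chromosome had a median difference of -0.16, with 29.1% of 402 genes higher in iPGCs and 40.0% lower. At least 4-fold, 32 of the 402 were higher (7.96%) and 37 lower, where 5.16% of all genes were so much higher and 6.05% so much lower. Chromosome 17 held 40 genes at least 4-fold higher (6.78% of 590 tested) and 17 at least 4-fold lower. Chromosomes 4 and 14 had 7.72% and 6.88% of their genes at least 4-fold higher, and chromosome 7 held 60 such genes (6.47%). These shares were not tested against the other chromosomes.

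Signs of opposite order were counted over all genes. In 138 genes every V6.5 iPGC array lay above, and every Oct4-Gfp iPGC array below, the somatic arrays of its line, and in 84 genes the reverse held. None of these passed the limma test of the difference between the lines.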
